A study of Salmo salar with 79 samples.

Results

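Genes named for enzymes that release arachidonic acid or convert it or its products were followed in skin wounds of Atlantic salmon (Salmo salar) kept at high or low fish density. The probes were chosen by their gene names in the study's list, with earlier results of these data known. Of 14841 probes on the array 4 were taken. They are cytosolic phospholipase A2 gamma (probe Ssa#S35498112), prostaglandin G/H synthase 1 (Ssa#GRASP209155549), lipocalin-type prostaglandin D synthase-like protein (Ssa#TC108704, called prostaglandin D synthase from here on) and epidermis-type lipoxygenase 3 (Ssa#GRASP209147548, called lipoxygenase 3). Each gene was read by 1 probe. The study lists these genes as eicosanoid genes that responded on the same arrays, so the shares of them that passed a test are not independent evidence.

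The fish were post-smolts, young salmon newly moved from fresh water to seawater, wounded with a skin punch biopsy. Fish were stocked at 100 kg/m3 for high fish density (HFD) and at 20 kg/m3 for the control. Intact skin taken before wounding (0 days post wounding, dpw) came from 4 fish per treatment, and wounds came from 5 fish per treatment at each of 7 days, which were 1 and 3 dpw, 7 and 14 dpw, and later 36, 43 and 57 dpw, making 78 fish in 16 groups. The fish had entered their tanks some weeks before wounding, so the HFD fish at 0 dpw had already been crowded. Each treatment had 1 tank, so tank and treatment cannot be told apart. Biomass was not adjusted as the fish grew and were sampled. The paper reports that it increased in the HFD tank over time, while density fell in the control tank. A part of each wound sample was used for RNA, and in such bulk tissue fewer cells of a type and less RNA per cell cannot be told apart.

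Eicosanoids are short-lived lipid signals made from arachidonic acid. A phospholipase A2 frees the fatty acid from membrane phospholipids, a prostaglandin G/H synthase (cyclooxygenase) turns it into prostaglandin H, and prostaglandin D synthase turns prostaglandin H into prostaglandin D. Lipoxygenases oxidise the same class of fatty acids instead. In mammalian skin prostaglandins and leukotrienes take part in pain, vessel dilation and the recruitment of leukocytes to wounds, and the epidermal lipoxygenases work in the lipid barrier of the epidermis.

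Levels are given as normalised log2 intensity, the log2 of the spot's signal minus the log2 of the 75th percentile of signals on the same array, so that a level of 0 is the signal of that percentile. Signal depends on the probe as well as on the transcript, and levels are compared between groups for 1 probe, not between probes. Of all probes, 60.1 to 94.5% were well above background on a given array, and the 75th percentile lay between 254 and 1066 intensity units. Prostaglandin G/H synthase 1, prostaglandin D synthase and lipoxygenase 3 were well above background in all fish. Phospholipase A2 gamma missed that mark in 1 of 4 intact HFD fish and in 1 of 5 control fish at 43 and at 57 dpw, and no spot of any of them was saturated. Arrays of the late wounds (36 to 57 dpw) and arrays of 0 to 14 dpw came from separate scan campaigns, so the late wounds were compared between treatments but not tested against intact skin. The labels do not say how the fish numbers were assigned, and p-values measure the spread between fish of 1 tank.

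**Figure D1:**
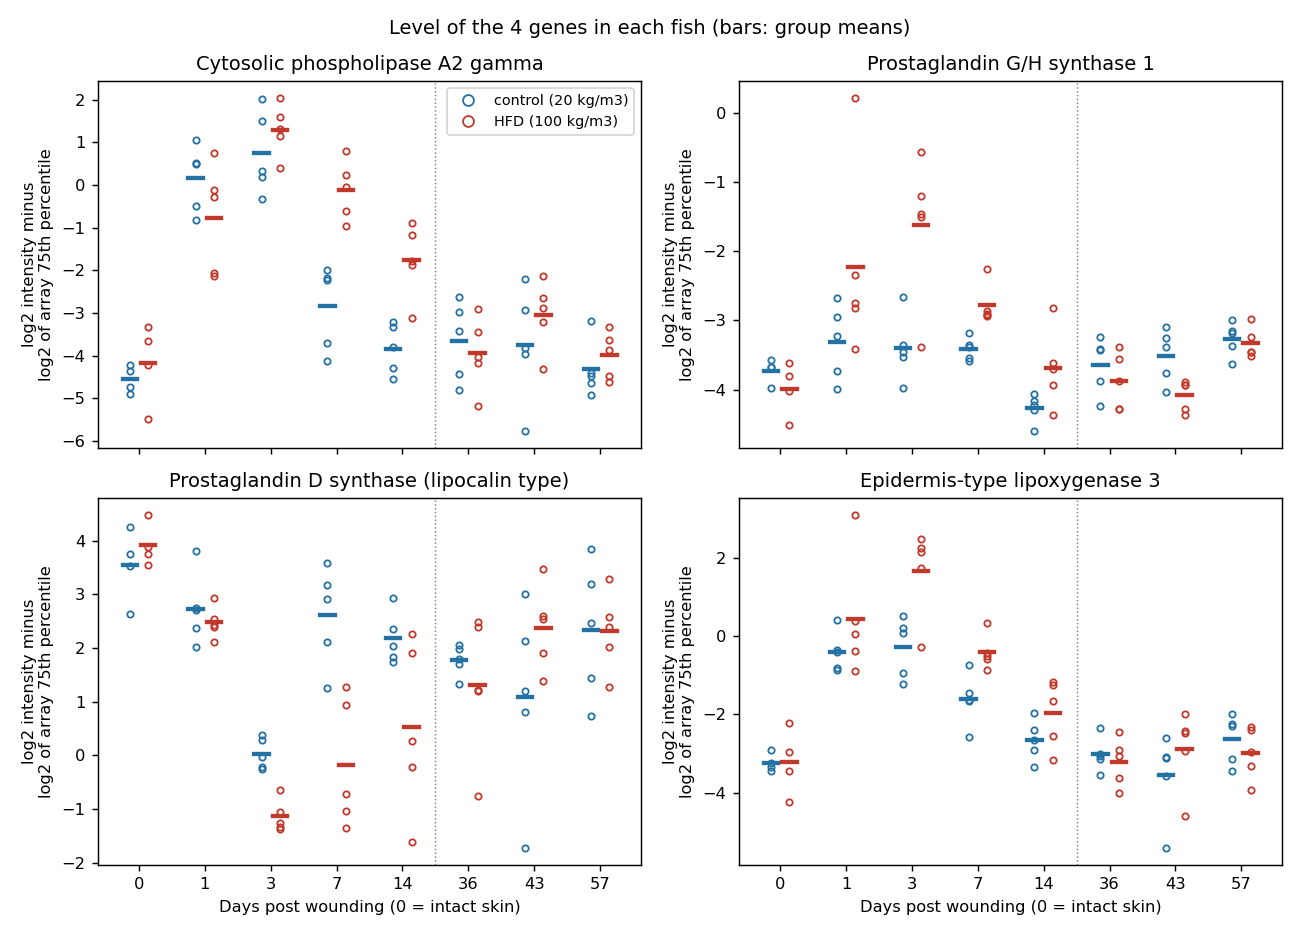
Normalised log2 intensity (vertical axis) of each of the 4 genes in every fish by day post wounding (horizontal axis), with HFD fish in red, control fish in blue, a bar at the mean of each group and a dotted line between the scan campaigns. Phospholipase A2 gamma spans 5.85 log2 units between its highest and lowest group mean, and prostaglandin D synthase falls where phospholipase A2 gamma and lipoxygenase 3 rise.

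The order of the group means is given as a description. Phospholipase A2 gamma had its highest mean in HFD wounds at 3 dpw (1.30 ± 0.60, SD, n = 5) and its lowest in intact control skin (-4.55 ± 0.32, SD, n = 4). The highest mean of prostaglandin G/H synthase 1 was also in HFD wounds at 3 dpw (-1.62 ± 1.05, SD, n = 5) and the lowest in control wounds at 14 dpw (-4.27 ± 0.20, SD, n = 5). Lipoxygenase 3 was highest in HFD wounds at 3 dpw (1.67 ± 1.13, SD, n = 5) and lowest in control wounds at 43 dpw (-3.56 ± 1.09, SD, n = 5). That control group had a median of -3.11 and its lowest fish at -5.42. Its arrays came from the late scan campaign, so the span of lipoxygenase 3 crosses both campaigns. Prostaglandin D synthase ran the other way, from 3.91 ± 0.40 (SD, n = 4) in intact HFD skin down to -1.14 ± 0.30 (SD, n = 5) in HFD wounds at 3 dpw. The spans were 5.85 log2 units for phospholipase A2 gamma, 2.65 for prostaglandin G/H synthase 1, 5.05 for prostaglandin D synthase and 5.23 for lipoxygenase 3. Neighbours in each order seldom stood apart. Of the 15 gaps between neighbouring group means of a gene, 1 exceeded the larger SD of the 2 groups for each of the 4 genes. For phospholipase A2 gamma that gap lay between HFD wounds at 14 dpw (-1.76 ± 0.86, SD, n = 5) and control wounds at 7 dpw (-2.84 ± 0.99, SD, n = 5), so that the HFD wounds of 1 to 14 dpw and the control wounds of 1 and 3 dpw formed the upper part of its order. The gap of prostaglandin G/H synthase 1 separated HFD wounds at 1, 3 and 7 dpw from all 13 other groups.

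What wounding did to the genes was asked first, by setting wounds of 1, 3, 7 and 14 dpw against intact skin of the same treatment (limma, called at a log2 difference above 0.8 in size and a Benjamini-Hochberg adjusted p under 0.05). Very many probes passed these tests. In control fish 27.9, 34, 27.9 and 22.5% of all probes were called at 1, 3, 7 and 14 dpw, and in HFD fish 26.2, 38.8, 32.1 and 31.5%. Among the 4 genes, 2, 3, 2 and 1 were called in control fish and 3, 4, 4 and 2 in HFD fish. The 4 tests of a treatment share the same intact fish. How many of all probes had wounds wholly apart from intact skin was not counted, so such separation of a gene is given as a description. The median difference over all probes was -0.12 to -0.14 log2 units in control fish and -0.17 to -0.32 in HFD fish, and relative to that median the called difference of the 4 genes nearest to 0 was -1.14. The median depended on the scaling. On the scaled table that the authors deposited it was 0.08 to 0.43 in control fish and -0.004 to 0.45 in HFD fish. With quantile normalisation it was -0.12 to 0.008 in control fish and -0.11 to 0.04 in HFD fish. Cell markers were named from the study's list, which was chosen on these arrays, so their counts are not independent evidence. Markers of leukocytes were called higher in the same wounds, 7, 6, 5 and 5 of 7 in control fish and 5, 7, 5 and 5 of 7 in HFD fish. Dermis markers were called lower, 4, 5, 5 and 0 of 5 in control fish and 2, 5, 4 and 0 in HFD fish. Of 6 epidermis markers 3, 4, 3 and 2 were called higher in control fish and 2, 4, 3 and 3 in HFD fish, while 0, 1, 0 and 1 were lower in control fish and 2, 2, 1 and 1 in HFD fish. Erythrocyte markers were higher for 3, 1, 1 and 2 of 3 in control fish and for 3 of 3 at each day in HFD fish. Of 2 T cell markers 2, 1, 0 and 0 were lower in control fish and 1, 0, 1 and 0 in HFD fish. Muscle markers were called higher for 2 of 3 at 14 dpw in both treatments and for 2 of 3 at 3 dpw in HFD fish, and 1 was lower at 7 dpw in control fish. The part of these shifts in the results of wounding was not tested.

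**Figure D2:**
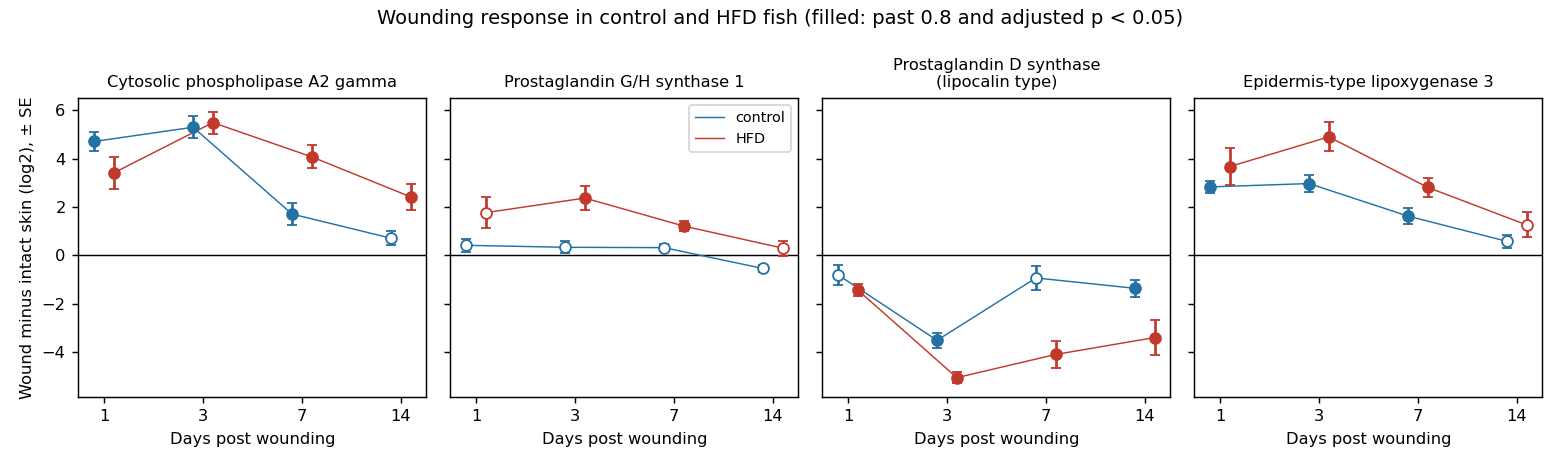
Log2 difference between wounds and intact skin of the same treatment (vertical axis, log2 units, error bars SE from limma) for the 4 genes at 1, 3, 7 and 14 dpw (horizontal axis), control fish in blue and HFD fish in red, called differences as filled points. Phospholipase A2 gamma and lipoxygenase 3 lie above 0 throughout, prostaglandin D synthase lies below 0 throughout, and prostaglandin G/H synthase 1 in control fish stays within 0.54 log2 units of 0.

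Phospholipase A2 gamma, in mammals a membrane-anchored enzyme of the cytosolic phospholipase A2 family that works without calcium, rose in the wounds of both treatments. In intact control skin the 4 fish read -4.73, -4.35, -4.90 and -4.21, and in control wounds at 1 dpw the 5 fish read -0.48, 1.06, 0.50, -0.82 and 0.52. Every wound lay above every intact sample, by a difference of 4.70 log2 units (SE 0.37, limma adjusted p = 1.99e-05). At 3 dpw control wounds read -0.33, 0.33, 2.02, 0.20 and 1.51, a difference of 5.29 from intact skin (SE 0.46, limma adjusted p = 5.43e-05), which is 39.2-fold. By 7 dpw the difference in control fish was 1.71 (SE 0.46, limma adjusted p = 0.0143), while 14 dpw gave 0.71 (SE 0.30, limma adjusted p = 0.0844), which was not called. Intact skin was near background for this probe, and with normexp background correction and quantile normalisation the values were smaller, 2.85 at 1 dpw and 3.39 at 3 dpw, while that at 7 dpw was 0.76, under the fold threshold, and without control fish 5 the value at 14 dpw was 0.89 and was called.

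In HFD fish the rise of phospholipase A2 gamma was called at all 4 days. The intact HFD fish read -5.49, -4.23, -3.66 and -3.34, and the first of them was not well above background. Against them the wounds differed by 3.41 at 1 dpw (SE 0.66, limma adjusted p = 0.0044), by 5.48 at 3 dpw (SE 0.46, limma adjusted p = 2.47e-05), by 4.07 at 7 dpw (SE 0.48, limma adjusted p = 0.000286) and finally by 2.42 at 14 dpw (SE 0.53, limma adjusted p = 0.00588). After normexp background correction they were 2.12, 3.83, 2.61 and 1.31. With the array slide as a block the value at 14 dpw was 1.72 and was no longer called.

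The level of phospholipase A2 gamma was higher in HFD than in control wounds at 7 and 14 dpw and overlapped between treatments at the other days. HFD and control fish were compared at each day with the study's own criteria (log2 difference above 0.8 in size, which is 1.74-fold, and unadjusted p under 0.05, limma). By these, the shares of all probes called from 0 to 14 dpw were 1.81, 3.45, 6.4, 4.34 and 4.29%. In the late wounds they were 1.19, 3.78 and 1.87%. Of the 4 genes, 3 were called at 3 dpw, 3 at 7 dpw, 2 at 14 dpw and none at the other 5 days, where limma gave 1 unadjusted p under 0.05 among 20. None of the 8 calls reached an adjusted p under 0.05, the lowest being 0.062. Single values were also compared by a two-sided exact permutation test, whose smallest possible p is 0.00794 with 5 fish against 5 and 0.0286 with 4 against 4. Over the 32 such tests the lowest Benjamini-Hochberg value was 0.0635.

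**Figure D3:**
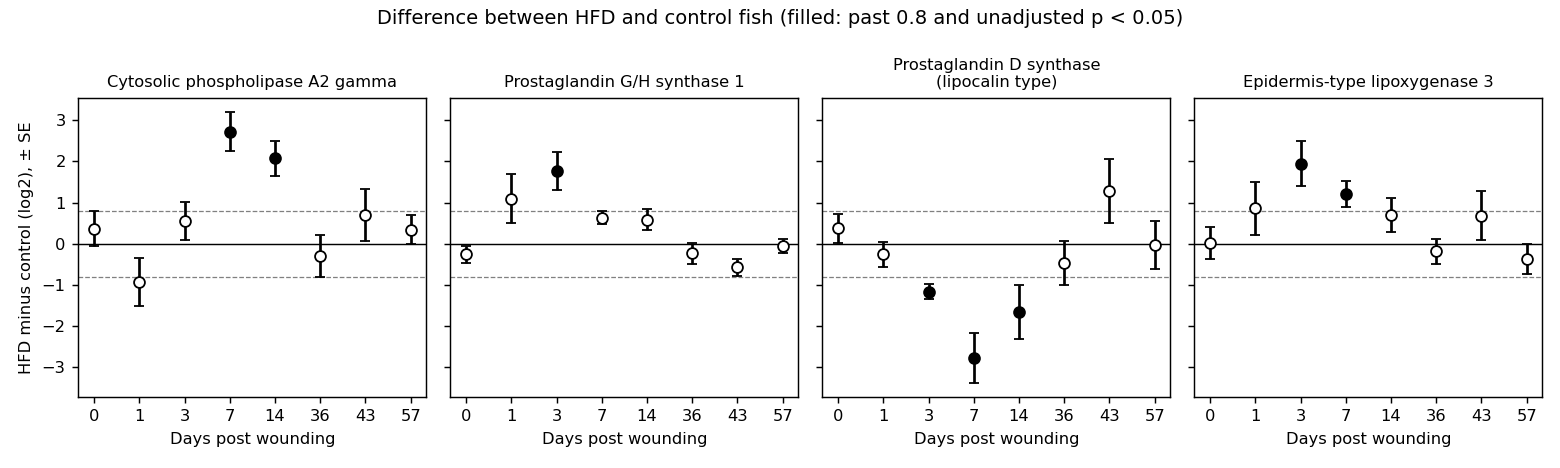
Log2 difference between HFD and control fish (vertical axis, log2 units, error bars SE from limma) for the 4 genes at each day post wounding (horizontal axis), with called differences as filled points and dashed lines at the fold threshold. The called differences lie at 3, 7 and 14 dpw, upward for phospholipase A2 gamma, prostaglandin G/H synthase 1 and lipoxygenase 3 and downward for prostaglandin D synthase.

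At 7 dpw the HFD wounds read 0.79, -0.60, -0.95, -0.05 and 0.24 for phospholipase A2 gamma. The control wounds read -4.12, -1.99, -3.70, -2.17 and -2.22. All HFD fish lay above all control fish, with a difference of 2.73 log2 units or 6.62-fold (SE 0.49, limma p = 0.000214, adjusted p = 0.071, exact permutation p = 0.00794). At 14 dpw the 5 HFD fish read -1.78, -1.87, -0.89, -1.17 and -3.11 and the 5 control fish -4.30, -3.80, -3.32, -3.22 and -4.55. Again the groups did not overlap, although HFD fish 5 lay close to the highest control fish, and the difference was 2.07 or 4.21-fold (SE 0.42, limma p = 0.000533, adjusted p = 0.105, exact permutation p = 0.00794). Groups that do not overlap were found for 4.39% of all probes at 7 dpw and 2.94% at 14 dpw.

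Earlier the treatments overlapped for phospholipase A2 gamma. At 1 dpw the HFD wounds read -0.12, -2.06, -0.29, 0.75 and -2.13, with fish 2 and fish 5 below every control fish and the other 3 among them. The difference was -0.93 (SE 0.59, exact permutation p = 0.214), and without HFD fish 4 it was -1.31 and met the criteria. At 3 dpw the HFD wounds read 1.32, 2.05, 1.59, 1.15 and 0.41, and the difference of 0.56 (SE 0.46, exact permutation p = 0.302) lay within the spread of the control fish. In intact skin the difference was 0.37 (SE 0.43, exact permutation p = 0.514), and without the dim HFD fish 1 it was 0.80 and met the criteria. From 36 to 57 dpw the differences were -0.30, 0.70 and 0.34 and none was called.

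Slides were shared by treatments in few cases. At 3, 7 and 14 dpw 1 slide held 1 HFD and 1 control fish, and within it phospholipase A2 gamma differed by -0.19 at 3 dpw, by 3.01 at 7 dpw and by 2.76 at 14 dpw. Limma with slide as a block takes these values from that pair of fish alone and the spread from the fish on other slides, so its calls at these days rest on 1 fish against 1. No slide held both treatments at 0 dpw, so slide and treatment cannot be told apart there. With normexp background correction the difference at 14 dpw was 1.11 and was called.

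Prostaglandin G/H synthase 1, the cyclooxygenase that mammals keep active in most tissues, hardly moved by wounding in control fish. Intact control skin read -3.68, -3.98, -3.57 and -3.68, and control wounds at 3 dpw read -3.98, -3.45, -3.35, -3.53 and -2.66. These groups overlapped, and the differences from intact skin were 0.42, 0.33, 0.32 and -0.54 at 1, 3, 7 and 14 dpw, none of them called. The last had a limma adjusted p of 0.0163 but lay under the fold threshold. On the scaled table that the authors deposited, the value at 7 dpw was 0.95 and was called. Its signals were low, at 32.3 to 51.5 intensity units in intact control skin and 43.8 to 94.1 in control wounds at 3 dpw.

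In HFD fish prostaglandin G/H synthase 1 was called higher at 3 and 7 dpw. Intact HFD skin read -4.02, -4.51, -3.61 and -3.81, and HFD wounds at 3 dpw read -0.57, -1.46, -3.38, -1.50 and -1.20. Fish 3 stood far below the other 4, and all 5 lay above all intact fish. The difference was 2.37 log2 units or 5.16-fold (SE 0.49, limma adjusted p = 0.00325). At 7 dpw the HFD wounds read -2.86, -2.94, -2.91, -2.92 and -2.26, a difference of 1.21 (SE 0.22, limma adjusted p = 0.00207), which was 0.62 and not called after normexp background correction. At 1 dpw the HFD wounds read -2.35, 0.22, -2.82, -3.42 and -2.75. Fish 2 stood far above the other 4, and all 5 lay above all intact fish. There the difference of 1.77 had a limma adjusted p of 0.0569, and it was called without HFD fish 2 (1.15) or without HFD fish 4 (2.06). It was also called with quantile normalisation (2.17), on the authors' scaled table (2.04) and with all 16 groups in 1 fit. The same held with only probes well above background on every array. With slide as a block it was 1.15 and not called.

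Between treatments prostaglandin G/H synthase 1 was called at 3 dpw. Of the 5 HFD fish 4 lay above all control fish, and HFD fish 3 lay among them. The difference was 1.77 log2 units or 3.42-fold (SE 0.46, limma p = 0.00314, adjusted p = 0.0924, exact permutation p = 0.0238). The HFD fish and the control fish on a shared slide differed by 2.09, and after normexp background correction the difference was 1.06 and called. At 7 dpw the 5 control fish read -3.54, -3.58, -3.38, -3.36 and -3.18. All HFD fish lay above them, but the difference of 0.63 (SE 0.15, limma p = 0.0019, adjusted p = 0.1, exact permutation p = 0.00794) was under the fold threshold. At that day 4.39% of all probes did not overlap, and the HFD fish and the control fish on the shared slide differed by 0.32.

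On the remaining days no difference of prostaglandin G/H synthase 1 was called. At 1 dpw the control wounds read -2.67, -2.95, -3.99, -3.22 and -3.73 against the HFD wounds given above, and the groups overlapped. The difference was 1.09 (SE 0.60, exact permutation p = 0.111), and without HFD fish 4 it was 1.39 and met the criteria. At 14 dpw the HFD fish read -4.37, -3.62, -3.70, -2.82 and -3.94 and the control fish -4.60, -4.23, -4.06, -4.16 and -4.29. Of the HFD fish 4 lay above all control fish, with a difference of 0.58 (SE 0.25, limma adjusted p = 0.29, exact permutation p = 0.0556). At 43 dpw the mean was lower in HFD fish, at -4.08 ± 0.23 against -3.51 ± 0.39 (SD, n = 5 each), a difference of -0.57 (exact permutation p = 0.0317) that was also under the fold threshold.

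Prostaglandin D synthase, a lipocalin that in mammals both makes prostaglandin D and carries lipophilic molecules, fell in the wounds. Intact control skin read 3.52, 2.64, 3.74 and 4.26, and control wounds at 3 dpw read 0.37, 0.28, -0.25, -0.04 and -0.21. No wound reached the lowest intact fish, and the difference was -3.51 log2 units or 11.4-fold (SE 0.30, limma adjusted p = 5.43e-05). At 7 dpw the control wounds read 3.59, 2.11, 3.18, 1.25 and 2.91 and overlapped with intact skin, with a difference of -0.93 (SE 0.49, limma adjusted p = 0.151). The level in control fish was thus at its lowest at 3 dpw. At 14 dpw control wounds read 2.36, 2.93, 1.74, 2.04 and 1.83, a difference of -1.36 (SE 0.34, limma adjusted p = 0.0133) that was -1.35 and no longer called with slide as a block. With all 16 groups in 1 fit it was not called either. At 1 dpw the difference of -0.81 (SE 0.40, limma adjusted p = 0.134) was not called, and it was called without intact control fish 6 (-1.11) or without control fish 4 of 1 dpw (-1.08).

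In HFD fish prostaglandin D synthase was called lower at all 4 days. Intact HFD skin read 3.75, 4.48, 3.54 and 3.88, and HFD wounds read 2.11, 2.54, 2.42, 2.93 and 2.39 at 1 dpw. At 3 dpw they read -1.27, -1.38, -1.34, -0.64 and -1.06. The fall was 1.43 at 1 dpw (SE 0.24, limma adjusted p = 0.00191) and 33.1-fold at 3 dpw, a log2 difference of -5.05 (SE 0.23, limma adjusted p = 3.38e-06). It was -4.09 at 7 dpw (SE 0.56, limma adjusted p = 0.000497), and wounds of 14 dpw gave -3.39 (SE 0.72, limma adjusted p = 0.00504). At these later days the HFD fish spread widely, with SDs of 1.20 and 1.59 against 0.30 at 3 dpw. With all 16 groups in 1 fit the fall at 1 dpw was no longer called.

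Set against control wounds of the same day, prostaglandin D synthase was lower in HFD wounds at 3, 7 and 14 dpw. At 3 dpw all HFD fish lay below all control fish, with a difference of -1.17 log2 units (SE 0.19, limma p = 7.99e-05, adjusted p = 0.062, exact permutation p = 0.00794), and 5.67% of all probes did not overlap at that day. At 7 dpw the HFD wounds read -0.73, -1.35, 0.93, -1.03 and 1.28. Of them 4 lay below all control fish and fish 5 lay just above the lowest control fish. The difference was -2.79 (SE 0.61, limma p = 0.000978, adjusted p = 0.0881, exact permutation p = 0.0159), the largest in size of the 32 differences between treatments. At 14 dpw the HFD wounds read -0.22, 0.26, -1.61, 1.91 and 2.25, with 3 fish below all control fish and fish 4 and 5 among them. The difference there was -1.66 (SE 0.66, limma p = 0.0304, adjusted p = 0.268, exact permutation p = 0.0794).

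The call at 14 dpw rested on single fish. It was lost without HFD fish 1 (-1.48), HFD fish 2 (-1.60), HFD fish 3 (-1.13), control fish 1 (-1.62) or control fish 2 (-1.47), with limma p between 0.0567 and 0.0696. Within the shared slide prostaglandin D synthase differed by -1.07 at 3 dpw, by -3.64 at 7 dpw and by -2.05 at 14 dpw. Each is a difference of 1 fish against 1, and the limma fit with the slide block did not call that of 7 dpw. When all 16 groups were fitted together with 1 estimate of the spread, the difference at 3 dpw was not called.

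Late wounds did not differ by these criteria. Prostaglandin D synthase ranged from -0.75 to 2.49 in HFD fish and from 1.33 to 2.05 in control fish at 36 dpw. At 43 dpw the HFD fish ranged from 1.39 to 3.46 and the control fish from -1.73 to 3.01, and at 57 dpw the ranges were 1.27 to 3.28 and 0.73 to 3.84. The groups overlapped at all 3 days. At 43 dpw the difference of 1.29 (exact permutation p = 0.183) met the criteria without control fish 5 (1.77) and with slide as a block (1.96), and it was 0.59 without control fish 1. In intact skin and at 1 dpw the differences were 0.37 (exact permutation p = 0.343) and -0.25 (p = 0.524 by the same test).

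Lipoxygenase 3, in mammals an enzyme that converts the hydroperoxides made by a partner lipoxygenase in the outer epidermis, rose by wounding in both treatments. Intact control skin read -3.46, -3.35, -2.91 and -3.25, and control wounds at 1 dpw read -0.40, 0.40, -0.36, -0.87 and -0.82. All wounds lay above all intact fish, by 2.83 log2 units or 7.10-fold (SE 0.26, limma adjusted p = 4.3e-05). At 3 dpw the control wounds read -1.23, 0.20, 0.50, -0.94 and 0.09, a difference of 2.96 (SE 0.36, limma adjusted p = 0.000281). It was 1.62 at 7 dpw (SE 0.31, limma adjusted p = 0.00273), and wounds of 14 dpw gave 0.58 (SE 0.26, limma adjusted p = 0.104), which was not called.

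In HFD fish the rise of lipoxygenase 3 was called at 1, 3 and 7 dpw. Intact HFD skin read -4.25, -3.46, -2.21 and -2.96, and HFD wounds at 3 dpw read 1.75, 2.16, -0.28, 2.49 and 2.24. Fish 3, the one that was also low for prostaglandin G/H synthase 1, stood far below the other 4. The difference from intact skin was 4.89 or 29.7-fold (SE 0.60, limma adjusted p = 0.000189). At 1 dpw it was 3.67 (SE 0.75, limma adjusted p = 0.00558), with HFD wounds at 0.39, 3.10, -0.39, -0.90 and 0.04, and with slide as a block it was 3.21 and not called. It was 2.81 at 7 dpw (SE 0.39, limma adjusted p = 0.000578). At 14 dpw it was 1.26 (SE 0.51, limma adjusted p = 0.0723), not called, and it was called without intact HFD fish 3 (1.60) or without HFD fish 1 of 14 dpw (1.56). It was also called with quantile normalisation (1.59), on the authors' scaled table (1.85) and after normexp background correction (0.83). With slide as a random block it was 1.35 and called, and with slide as a block it was -0.59 and not called.

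Between treatments lipoxygenase 3 was called at 3 and 7 dpw. At 3 dpw 4 of 5 HFD fish lay above all control fish and fish 3 lay among them, with a difference of 1.95 log2 units or 3.86-fold (SE 0.54, limma p = 0.00464, adjusted p = 0.0989, exact permutation p = 0.0317). At 7 dpw the HFD wounds read -0.58, -0.50, -0.87, -0.44 and 0.33 and the control wounds -2.58, -1.45, -1.67, -0.75 and -1.63. Again 4 of 5 HFD fish lay above all control fish, and HFD fish 3 lay just below control fish 4. The difference was 1.20 or 2.31-fold (SE 0.32, limma p = 0.00386, adjusted p = 0.125, exact permutation p = 0.0159). Within the shared slide the values were 1.66 at 3 dpw and 1.06 at 7 dpw, each 1 fish against 1, and neither was called in limma with slide as a block.

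At 14 dpw the HFD wounds read -3.17, -1.25, -2.56, -1.18 and -1.65 for lipoxygenase 3 and the control wounds -3.34, -2.92, -1.97, -2.66 and -2.39. The groups overlapped, and the difference was 0.70 (SE 0.41, exact permutation p = 0.151). It was 1.00 without HFD fish 1 and met the criteria, and it was -0.78 between the 2 fish of the shared slide, 1 of which was that same fish. In intact skin the treatments differed by 0.02 (SE 0.39), and at 1, 36, 43 and 57 dpw by 0.86, -0.19, 0.67 and -0.37, none of them called.

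Whether the HFD difference itself changed between days was tested as a difference of differences (limma, the same criteria). These tests called 7.47% of all probes for 1 against 0 dpw, 8.24% for 3 against 0, 7.21% for 7 against 0, 3.78% for 14 against 0, 4.32% for 3 against 1, 5.06% for 7 against 3 and 5.03% for 14 against 7. Of 28 tests of the 4 genes, 14 were called, none with an adjusted p under 0.05. They share fish, since 4 of the 7 use the intact skin. Against intact skin the HFD difference was larger at 7 dpw by 2.36 for phospholipase A2 gamma (SE 0.71, limma adjusted p = 0.163) and fell by 3.16 for prostaglandin D synthase (SE 0.79, limma adjusted p = 0.137). At 3 dpw it was larger by 2.03 for prostaglandin G/H synthase 1 (SE 0.58, limma adjusted p = 0.192) and by 1.93 for lipoxygenase 3 (SE 0.74, limma adjusted p = 0.283). From 3 to 7 dpw it grew by 2.17 for phospholipase A2 gamma (SE 0.71, limma adjusted p = 0.195). Over the same days the HFD difference of prostaglandin G/H synthase 1 went from 1.77 to 0.63, a change of -1.14 that was called (limma adjusted p = 0.367). That of lipoxygenase 3 went from 1.95 to 1.20, a change of -0.74 that was not called (limma adjusted p = 0.674). With slide as a block 1 of the 14 calls was kept, that of prostaglandin D synthase for 14 against 0 dpw (-2.64 in place of -2.03). There the value for 7 against 0 dpw was 2.57 for phospholipase A2 gamma and -5.70 for prostaglandin D synthase, and that for 3 against 0 dpw was 2.34 for prostaglandin G/H synthase 1, all with larger errors (SE 2.18, 2.79 and 1.54). Lipoxygenase 3 went down to 0.49 for 3 against 0 dpw and to 0.38 for 7 against 0 dpw, and prostaglandin G/H synthase 1 to -0.07 for 7 against 0 dpw. No slide held both treatments at 0 dpw, so with this block the difference there is reached only through fish of the other day.

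The levels of cell markers differed between treatments on some of these days. The markers were named from the study's list, which was chosen on these arrays, so their counts are not independent evidence. Of all probes 6.4, 4.34 and 4.29% were called at 3, 7 and 14 dpw. At 3 dpw 5 of 7 leukocyte markers were called higher in HFD fish, with a mean level of 2.13 to 3.19 against 1.30 to 1.87 in control fish. At 7 dpw none of the 7 was called, with 1.32 to 2.02 against 1.46 to 1.82. The differences of 6 markers lay above 0 and that of 1 below, with a median of 0.25. At 14 dpw 2 of 7 were called higher. Epidermis markers did not differ at 3 dpw by these criteria (0 of 6, levels 2.85 to 3.41 against 2.64 to 3.21), while at 7 dpw 1 was called higher and 1 lower and at 14 dpw 2 were called higher. Dermis markers were called lower in HFD wounds at 14 dpw (5 of 5, levels 0.32 to 0.95 against 1.09 to 1.82). Muscle markers were called higher in HFD fish at 3 dpw (2 of 3, levels -2.74 to -0.65 against -5.80 to -1.77). Of 2 T cell markers 1 was called lower at 7 dpw (levels -2.53 to -1.02 against -1.53 to -0.40). Erythrocyte markers were called lower at 14 dpw (3 of 3, levels -0.90 to 0.99 against 0.51 to 1.21). The part of these shifts in the results of the same days was not tested. Markers of the lists were well above background in at least 73 of 78 fish each.

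The other genes that the study names as eicosanoid genes were read as a list of 9 probes. The study found these genes on the same arrays, so their counts are not independent evidence. Several of them make, sense or inactivate leukotriene B4, which draws leukocytes to injured tissue. At 3 dpw 7 of 9 were called higher in HFD wounds and none lower, where 6.4% of all probes were called, with a median difference of 1.17 against -0.05 over all probes. They were prostaglandin G/H synthase 2b (1.79 log2 units), the inducible cyclooxygenase in mammals, leukotriene A-4 hydrolase (1.50), which makes leukotriene B4, leukotriene B4 receptor 1 (1.26), and vascular endothelial growth factor C (1.23), a growth factor for lymphatic vessels. The other 3 were arachidonate 5-lipoxygenase-activating protein (1.17), arachidonate 5-lipoxygenase (0.99), which starts leukotriene synthesis, and cytochrome P450 4F3 (0.98), which inactivates leukotriene B4. At 7 dpw, when 4.34% of all probes were called, 2 were called higher, prostaglandin G/H synthase 2b (2.09) and vascular endothelial growth factor C (1.05). A pair was called lower at 7 dpw, the solute carrier organic anion transporter family member (-0.96) and leukotriene B4 12-hydroxydehydrogenase/15-ketoreductase (-0.87), which inactivates leukotriene B4 and prostaglandins in mammals.

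Before wounding, leukotriene B4 12-hydroxydehydrogenase/15-ketoreductase was called lower in HFD skin (-0.93, SE 0.23), 1 of 8 tested, where 1.81% of all probes were called. Slide and treatment cannot be told apart at that day. At 1, 14, 36, 43 and 57 dpw none of the list was called. No adjusted p was under 0.05 in these treatment comparisons. The probe of prostaglandin G/H synthase 2b was well above background in 47 of 78 fish and was not tested at 0, 36, 43 and 57 dpw. By wounding, 7, 7, 6 and 6 of the list rose in control fish at 1, 3, 7 and 14 dpw and 2, 2, 1 and 1 fell, where 8 probes were tested at 14 dpw and 9 before. Of all probes 27.9, 34, 27.9 and 22.5% were called in either direction. In HFD fish 7, 7, 7 and 5 rose and 1, 2, 1 and 1 fell, beside 26.2, 38.8, 32.1 and 31.5% of all probes.

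**Figure D4:**
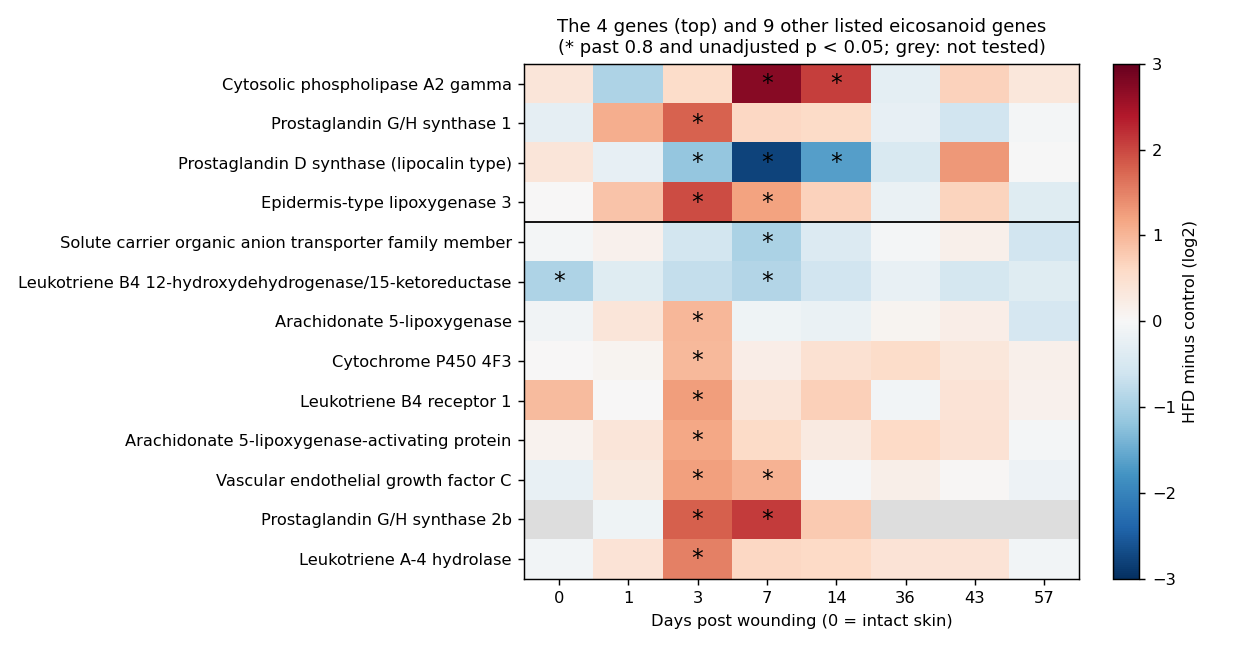
Heat map of the log2 difference between HFD and control fish (colour scale, red higher and blue lower in HFD) for the 4 genes and, under the line, the 9 other eicosanoid probes (rows) at each day post wounding (columns), with called differences starred and untested ones grey. At 3 dpw 7 of the 9 other probes are called higher, while at 14 dpw none is called and phospholipase A2 gamma still lies 2.07 higher.

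Whether the 4 genes varied together from fish to fish was examined with each fish's deviation from the mean of its treatment and day, over 78 fish and 6 pairs of genes. A joint variation was seen for prostaglandin G/H synthase 1 and lipoxygenase 3 (Pearson r = 0.632, permutation p = 0.00012, adjusted 0.00072; Spearman rho = 0.473, permutation p = 0.00024, adjusted 0.00144). Without the 2 fish farthest from the median of prostaglandin G/H synthase 1, r was 0.451. HFD fish 2 at 1 dpw was high for both genes (0.22 and 3.10) and HFD fish 3 at 3 dpw was low for both (-3.38 and -0.28). The value of r was 0.80 over the 48 fish of 0 to 14 dpw and 0.139 over the 30 fish of 36 to 57 dpw, and it was 0.72 within HFD fish and 0.401 within control fish. HFD fish 2 at 1 dpw and HFD fish 3 at 3 dpw belong to the sets with r of 0.80 and 0.72, where r was not taken without them. Of 12219 other probes, 2 had a higher r with prostaglandin G/H synthase 1 and the median r was near 0. These were an unnamed probe (Ssa#GRASP221220865, 0.66) and matrix metalloproteinase-25 (Ssa#S18877812, 0.647), a membrane-bound protease known from neutrophils in mammals.

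**Figure D5:**
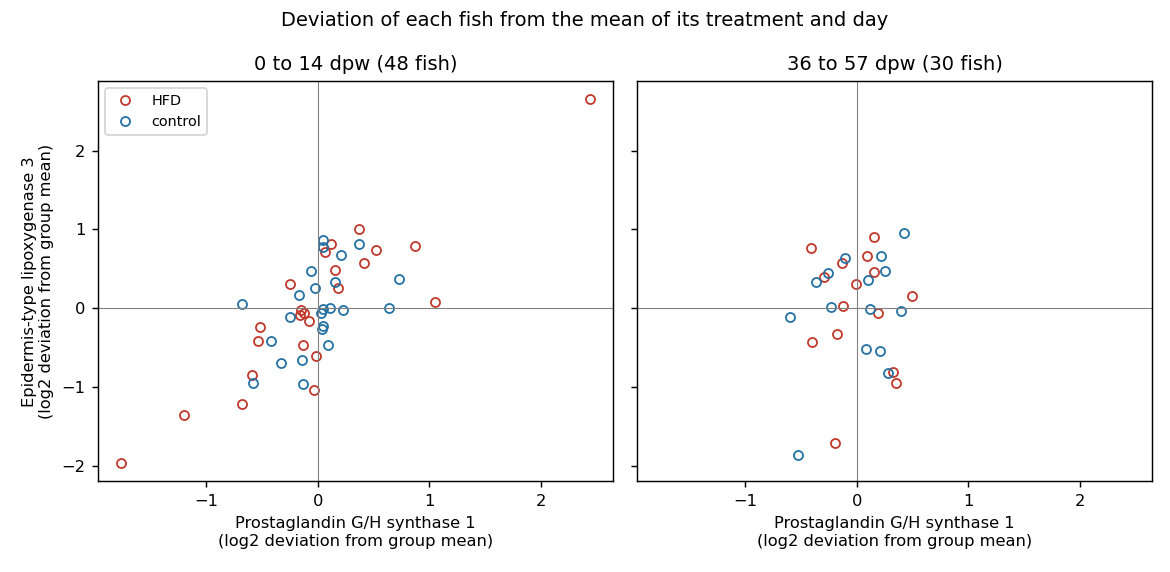
Deviation of each fish from the mean of its treatment and day for lipoxygenase 3 (vertical axis, log2 units) against prostaglandin G/H synthase 1 (horizontal axis, log2 units), arrays of 0 to 14 dpw (48 fish) beside those of 36 to 57 dpw (30 fish), HFD and control fish in separate colours. The points rise together in the first panel (r = 0.80) and scatter in the other (r = 0.139). The first panel holds HFD fish 2 at 1 dpw and HFD fish 3 at 3 dpw, both far from 0 for both genes.

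Phospholipase A2 gamma and lipoxygenase 3 showed a weaker relation (Pearson r = 0.302, permutation p = 0.0351, adjusted 0.105; Spearman rho = 0.372, permutation p = 0.00315, adjusted 0.00945). It was 0.0665 over the fish of 0 to 14 dpw and 0.69 over those of 36 to 57 dpw, and it was 0.0444 within HFD fish and 0.675 within control fish. Without the 2 farthest fish r was 0.227. Of 12219 other probes, 884 (7.23%) had a higher r with phospholipase A2 gamma than lipoxygenase 3 had. The remaining 4 pairs had Pearson r between -0.099 and 0.238, none with an adjusted permutation p under 0.05. Phospholipase A2 gamma and prostaglandin D synthase, which moved in opposite directions by group, had r = 0.0147 between fish of the same group, which was -0.329 over the 48 fish of 0 to 14 dpw and 0.384 over the 30 later fish. Control fish 1 at 43 dpw was low for 3 of the genes, at -5.77 for phospholipase A2 gamma, where it was not well above background, -5.42 for lipoxygenase 3 and -1.73 for prostaglandin D synthase. Without that fish, left out after its values were seen, r of phospholipase A2 gamma with lipoxygenase 3 was 0.219 over 77 fish, 0.568 over the 29 late fish and 0.566 within control fish. The late r of phospholipase A2 gamma with prostaglandin D synthase was then 0.129. In its group the mean level of leukocyte markers went down to -1.93 (median -0.31) and that of epidermis markers to -1.84 (median 1.44), and their part in these correlations was not tested.

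Over the 16 group means, the probes with the most similar pattern were sought among 722 probes that the study names, as a description. For phospholipase A2 gamma they were tropomodulin-3 (Pearson r = 0.974), which caps actin filaments, the C3a anaphylatoxin chemotactic receptor (0.966), a complement receptor of leukocytes, and 1-acyl-sn-glycerol-3-phosphate acyltransferase theta-B (0.965). For lipoxygenase 3 they were 5-aminolevulinate synthase (0.977), the first enzyme of haem synthesis, pleckstrin homology domain-containing family F member 1 (0.976) and hyaluronidase-2 (0.969). Those of prostaglandin D synthase were keratin type I cytoskeletal 20 (0.933), an epithelial filament protein, C-C motif chemokine 28 (0.921), a chemokine of mucosal epithelia in mammals, and laminin subunit beta-4 (0.915), named as a basement membrane protein. The matches of prostaglandin G/H synthase 1 were less close, with 6-phosphofructo-2-kinase/fructose-2,6-biphosphatase 4 (0.843), NF-kappa-B inhibitor alpha (0.816) and acyl-CoA-binding protein (0.809) first. The study chose its named probes on these same arrays, so high values of r among them are not independent evidence. Keratin type I cytoskeletal 20 is also among the epidermis markers used above. The group means share 2 treatments and 2 scan campaigns, and with Spearman's rho 0 of the 3 names stayed for phospholipase A2 gamma and for prostaglandin G/H synthase 1 and 2 of 3 for the others.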

How the data were processed

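Deposited files hold the spot intensity values that Agilent Feature Extraction 12.0.1.1 wrote for 79 one-colour arrays of 15377 spots on 10 slides, without normalisation between arrays; the authors corrected the background and removed spot trends within that software. Probe names come from the study's list of named probes. RNA isolation is described with different kits in the labels and the methods. From the processed signal the log2 of each array's 75th percentile was subtracted. The 536 control spots and spots marked as outliers were left out, and for 1 control fish of 57 dpw, hybridised again, the mean of both arrays was taken. For a probe to be tested, the number of its arrays well above background had to reach the size of the smaller group. Comparisons were fitted for the groups concerned over all tested probes with limma 3.58.1 in R 4.3.3, after a test on simulated data. Between treatments and days a call needed a log2 difference above 0.8 in size and p under 0.05; for wounding the p was Benjamini-Hochberg adjusted. Exact permutation tests (two-sided, scipy 1.17.1) were run on single genes, and correlations used 100000 permutations. Markers and the other eicosanoid genes were read as lists, a list's level being the mean of its probes, and the 3 probes most similar by Pearson's r over group means were named. The genes and the lists were chosen with earlier results of these data known. The number of fish, not a read depth, limits the precision. The authors' scaled table, with arrays of equal totals, served as an alternative, together with other normalisations, filters, fits, slide blocks and single fish left out. The study's list also holds the authors' own comparisons, which were not used.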

Additional observations from a re-analysis of the deposited data

Results flagged for a closer look

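In 2 of 64 groups of a gene 1 fish stood far from the others, where chance gives about 1 group in 20. Prostaglandin G/H synthase 1 was high in HFD fish 5 at 7 dpw (-2.26, the others -2.94 to -2.86), and lipoxygenase 3 was low in HFD fish 3 at 3 dpw (-0.28, the others 1.75 to 2.49).

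Tests of a change of the HFD difference between days called 3.78 to 8.24% of all probes. The study lists these genes as responding on the same arrays, and the tests against 0 dpw share the intact fish. Among these genes a change was called in 14 of 28 tests, of which none had a limma adjusted p under 0.05. For 3 against 0 dpw these were prostaglandin G/H synthase 1 (2.03), prostaglandin D synthase (-1.54) and lipoxygenase 3 (1.93). For 7 against 0 dpw they were phospholipase A2 gamma (2.36), prostaglandin G/H synthase 1 (0.89), prostaglandin D synthase (-3.16) and lipoxygenase 3 (1.19). For 14 against 0 dpw they were phospholipase A2 gamma (1.71), prostaglandin G/H synthase 1 (0.84) and prostaglandin D synthase (-2.03). For 3 against 1 dpw it was prostaglandin D synthase (-0.91), and for 7 against 3 dpw phospholipase A2 gamma (2.17), prostaglandin G/H synthase 1 (-1.14) and prostaglandin D synthase (-1.62).

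Single fish decided 7 of these. For 7 against 0 dpw prostaglandin G/H synthase 1 lost its call without intact HFD fish 2 (0.72) or HFD fish 5 of 7 dpw (0.76). Lipoxygenase 3 lost it for the same days without intact HFD fish 1 (0.84) or 2 (1.11), intact control fish 7 (1.08) or 8 (1.19), HFD fish 4 (1.19) or 5 (1.00) of 7 dpw, or control fish 1 (0.95), 3 (1.17) or 5 (1.18) of 7 dpw. For 14 against 0 dpw prostaglandin G/H synthase 1 lost it without intact HFD fish 2 (0.67), intact control fish 7 (0.79), HFD fish 4 (0.62) or control fish 1 (0.76) of 14 dpw, and prostaglandin D synthase without intact HFD fish 2 (-1.84), intact control fish 6 (-1.73), HFD fish 1 (-1.85) or control fish 2 (-1.85) of 14 dpw. For 3 against 1 dpw prostaglandin D synthase lost it without control fish 1 of 1 dpw (-0.74). For 7 against 3 dpw prostaglandin D synthase lost it without HFD fish 2 (-1.32), HFD fish 4 (-1.40) or control fish 1 (-1.37) of 7 dpw. Prostaglandin G/H synthase 1 lost it for those days without any 1 of 14 fish (-1.13 to -0.88), and kept it only without HFD fish 3, control fish 3 or control fish 5 of 3 dpw or HFD fish 5, control fish 1 or control fish 2 of 7 dpw.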

How the results depend on the processing

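Between treatments 8 calls were made for the 4 genes over 8 days, and 7 to 10 without single fish, 6 with slide as a block, 9 with all groups in 1 fit, 7 by analysis of variance and 8 with the replicate number as a block over the 7 wounded days. These totals include calls gained. Slide as a block lost lipoxygenase 3 at 3 and 7 dpw and prostaglandin D synthase at 7 dpw, and gained prostaglandin D synthase at 43 dpw (1.96). All groups in 1 fit lost prostaglandin D synthase at 3 dpw. That fit gained prostaglandin G/H synthase 1 at 1 dpw (1.09) and prostaglandin D synthase at 43 dpw (1.29). Wounding gave 8 calls in control fish (8 to 9 without single fish, 11 on the authors' table, 2 of 3 with slide as a block at 1 and 14 dpw) and 13 in HFD fish (13 to 14 without single fish, 3 of 5 with slide as a block at the same days). Changes of the HFD difference between days gave 14 calls, and 10 to 17 without single fish. With all groups in 1 fit 9 were called, and 10 after normexp background correction. These totals include calls gained, such as prostaglandin G/H synthase 1 for 1 against 0 dpw (1.35) with all groups in 1 fit. In that fit prostaglandin D synthase lost its calls for 3 against 0, 3 against 1 and 7 against 3 dpw. Prostaglandin G/H synthase 1 lost those for 7 and 14 against 0 dpw, and lipoxygenase 3 that for 7 against 0 dpw. With slide as a block 1 change was called, and prostaglandin G/H synthase 1 for 7 against 0 dpw turned from 0.89 to -0.07. That value reaches 0 dpw, where no slide held both treatments, only through fish of the other day, and the cause of the turn was not tested. Over all other settings, 911 values of single genes kept their direction and side of the threshold, 36 lost a call and 17 gained one. Another 20 changed direction while uncalled in both fits, and 1 called value changed direction. The 911 include uncalled values that stayed uncalled and settings such as leaving out the filter on dim probes, where all 92 values stayed the same. With slide as a block 18 calls were lost, 12 uncalled values changed direction and 1 called value did. Normexp background correction gave smaller differences of dim probes, such as 2.85 in place of 4.70 for phospholipase A2 gamma in control wounds at 1 dpw. Fish numbers were shared across treatments, and 35 same-numbered pairs had correlations of -0.577 to 0.417 between their deviations (median -0.0624, 10 of them over 0.1). Pairs of different number were not compared, so these values cannot tell whether the numbers pair the fish. No fit with a replicate block was made at 0 dpw, where treatments share no number. Slide as a block could not be fitted for treatments at 0 dpw or for wounding at 3 and 7 dpw; with slide as a random block no treatment or wounding call was lost. Precision is limited by 4 or 5 fish a group and, for phospholipase A2 gamma, by signals near background in intact skin.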

Other observations

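The array of control fish 3 at 57 dpw was run again. The first array and the repeat read -4.74 and -5.11 for phospholipase A2 gamma, -3.20 and -2.78 for prostaglandin G/H synthase 1, 1.66 and 1.23 for prostaglandin D synthase and -3.44 on both for lipoxygenase 3.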
